A study of Mus musculus with 15 samples.

Results

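The subunits of the respiratory chain and ATP synthase that are encoded in the nucleus were followed by ribosome profiling of mouse liver over 1 day. Ribosome profiling sequences the short mRNA fragments that ribosomes protect from nuclease, so that reads count ribosomes on a transcript. Members were taken by gene symbol, from the Nduf, Sdh, Uqcr, Cyc1, Cox4 to Cox8 and Atp5 names, with the best-covered transcript kept for each gene. This gave 85 of the 20101 named genes, of which 37 belong to complex I, 4 to complex II, 9 to complex III, 18 to complex IV and 17 to complex V. Ndufa4 is counted under complex I by its name, although it is also assigned to complex IV, and Cox7a2l, counted under complex IV, is known as a factor that joins complexes III and IV.

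The livers came from wild-type C57BL/6N males aged 8 to 10 weeks. After entrainment to 12 h of light and 12 h of dark the animals were placed in constant darkness, and from 24 h later they were killed every 4 h from CT0 to CT24 (circadian time in h), with 2 mice at each time and 14 libraries in all. Every animal had the same genotype and housing, and the comparison is between times. The material was whole liver, so fewer cells of a type and less RNA per cell cannot be told apart, nor can more mRNA and more ribosomes per mRNA.

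Oxidative phosphorylation passes electrons from NADH (complex I) and succinate (complex II) through coenzyme Q, complex III and cytochrome c to oxygen at complex IV. The proton gradient that complexes I, III and IV build drives ATP synthase, complex V. Mitochondrial DNA encodes the remaining subunits of all these complexes except complex II. In liver the chain supports gluconeogenesis, urea synthesis and fatty acid oxidation, all of which follow feeding and fasting.

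Total counts ran from 40593197 to 90458783 per library, and the 85 genes received 253880 to 427250 of them, or 0.364% to 0.850%. Major urinary protein transcripts (Mup), secreted liver products, took 34.2% to 57.6%. Because a share of all counts moves with Mup, levels are given as counts per 1000000 after TMM scaling (CPM), a method that sets library sizes by the bulk of transcripts. Hepatocyte markers summed to 40735 to 56379 CPM. Markers of Kupffer cells reached at most 116 CPM, of liver endothelium 134 CPM, of stellate cells 145 CPM, of cholangiocytes 24.3 CPM and of erythroid cells 77.2 CPM. The 4 brown adipocyte markers summed to 25.1 to 319 CPM, of which Elovl3, a fatty acid elongase, gave 21.1 to 319 CPM, while Ucp1 and Cidea, the defining genes, reached at most 0.175 and 0.210 CPM. Elovl3 and Ppargc1a, which was at most 3.89 CPM, had a 24 h course. Acinar pancreas markers summed to 2419 CPM in CT20 mouse 2 and to at most 48.5 CPM elsewhere. In CT16 mouse 2 every count was even, against 45.7% to 50.02% of counts in the other libraries. If each read was counted double there, which was not tested, the library holds 26166004 counts, with 140632 on the 85 genes, both below the ranges above. With its counts halved the number of subunits called by edgeR was the same in the tests of a 24 h course, of any difference between times and of CT24 against CT0. Leaving out CT16 mouse 2 changed no count of subunits called by edgeR, but it moved the times of the highest sums, and the values without it or without CT20 mouse 2 stand beside the results they change.

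Subunits of 1 complex differed widely in footprint density, here the CPM of coding sequence (CDS) reads per kb of CDS, averaged over the 14 libraries. Of the 85 genes, 79 averaged 10 counts or more over the libraries and were tested. In complex II, whose 4 subunits are present in equal numbers in the enzyme, densities lay within 1.33-fold of each other. Sdhc and Sdhd, the membrane anchors, stood at 148 ± 19.76 and 140 ± 19.05 (SD, n = 14). Sdhb, the iron-sulphur subunit, stood at 124 ± 10.2, and Sdha, the flavoprotein that oxidises succinate, at 111 ± 9.20 (SD, n = 14). The order was not the same in every mouse: Sdhc exceeded Sdhd in 10 of 14 libraries and exceeded Sdha in 13 of 14.

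Complex I was the least dense of the 5 at its median, 66.9, with quartiles of 48.0 and 97.7. Ndufa4 was highest, at 477 ± 34.3 (SD, n = 14), and Ndufa4l2, a paralogue known to be induced by hypoxia, lowest, at 1.04 ± 0.372. Among the core subunits, Ndufv1, which binds NADH and FMN, stood at 46.6 ± 4.61 and Ndufs1, the largest iron-sulphur subunit, at 25.9 ± 3.49 (SD, n = 14). Ndufs1 was below Ndufv1 in all 14 libraries, by 0.85 ± 0.26 (log2, SD), although each is present once in the complex. Ndufv2, beside Ndufv1 in the NADH module, was read from a transcript with a short CDS, at 50.2, and its other transcript gave 59.8.

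In complex III the small subunit Uqcrq led, at 445 ± 70.4, and Uqcrb, another small subunit, was lowest, at 69.8 ± 12.3 (SD, n = 14), with 16.8% of its CDS in stretches found once in the genome. The redox subunits were lower than Uqcrq. Uqcrfs1, the Rieske iron-sulphur protein, stood at 130 ± 20.0, Cyc1, cytochrome c1, at 90.1 ± 13.2, and the core protein Uqcrc1 at 111 ± 9.70 (SD, n = 14). Cyc1 was below Uqcrfs1 in all 14 libraries.

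Complex IV had the highest median of the 5, 246 over its 12 tested genes. Cox8a, a small membrane subunit, was the densest of all 79, at 592 ± 135 (SD, n = 14), with a range over libraries of 352 to 857. Cox4i1, the largest of the nuclear-encoded subunits, stood at 308 ± 25.1 and Cox5a, its neighbour on the matrix side, at 195 ± 30.5 (SD, n = 14). Cox7c, Cox7a2l and Cox7a1 lay far below, at 13.9, 11.3 and 1.79, with 0%, 29.6% and 71.3% of their CDS in stretches found once in the genome.

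Complex V took the largest share of the reads, a median of 34.7% (33.4% to 37.9% over libraries), against 26.9% for complex I, 15.8% for complex IV, 14.1% for complex III and 8.47% for complex II. These shares compare subunits within a library, so that no scaling between libraries enters them. Atp5b, the catalytic β subunit (chr10:128083307-128090388 on GRCm38), had 311 ± 25.3 and Atp5a1, its α partner, 265 ± 24.5 (SD, n = 14). The enzyme carries both in equal numbers, and Atp5b exceeded Atp5a1 in all 14 libraries, by 0.23 ± 0.06 (log2, SD). Atp5c1, the γ shaft, and Atp5o, the stalk protein that ties the head to the membrane, are each present once per enzyme, and Atp5b was 3.63-fold and 3.47-fold denser than they were (geometric means of 14 libraries). Atp5d, the δ subunit, and Atp5e, the ε subunit, are also present once, but Atp5b was 1.28-fold denser than Atp5d and 0.732-fold as dense as Atp5e. Of the 28-base stretches of the CDS, 27.2% in Atp5c1 and 31.5% in Atp5o were found several times in the genome. The share was 5.63% in Atp5b and 0% in Atp5d and Atp5e. What repeated sequence does to these ratios was not tested. The Atp5c1 transcript used here has part of the alternative transcript's CDS in its 5′UTR, and the alternative gave a density of 101 in place of 86.4.

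**Figure D1:**
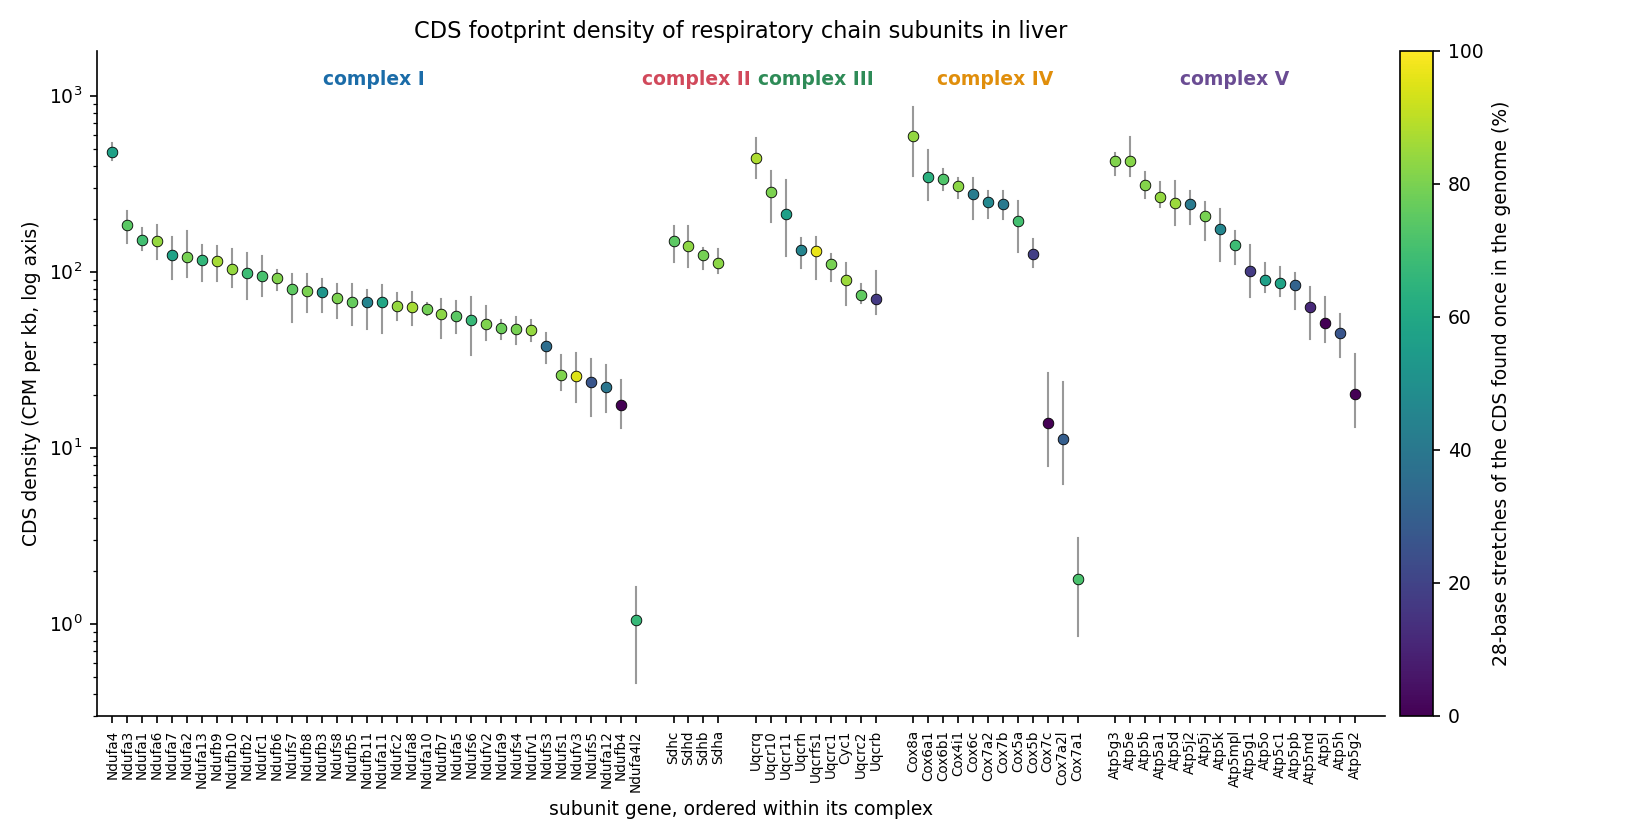
CDS footprint density (CPM per kb, log axis) of 78 of the tested subunits, ordered within each complex; points are means of 14 libraries, bars run from the lowest to the highest library, and colour gives the share of 28-base stretches of the CDS found once in the genome. The 4 complex II genes sit between 111 and 148, while the lowest genes of complex I, at 1.04, and complex IV, at 1.79, lie far under the rest of their complex.

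Some of the lowest densities belonged to genes whose sequence is repeated in the genome, among them 5 of the 10 lowest. Each CDS was broken into all its 28-base stretches, about a footprint's length, and the share found once in the mouse genome was counted. The other stretches were found several times or not at all. Several of these genes have processed pseudogenes. The study's methods name uniquely placed reads as the basis of its density profiles, and under such a rule a read that fits more than 1 place is dropped; whether the counts used here follow it is not given in the sources used here. Stretches found once made up 0% of the CDS of Atp5g2, Atp5l, Cox7c and Ndufb4. The 11 tested subunits with under 30% had a median density of 44.9 (11.3 to 126), and the 44 with at least 70% a median of 108. Across the 79 subunits, which share libraries and complexes, log2 density and this share had a Pearson r of 0.28 and a Spearman rho of 0.25. The part of repeated sequence in any single level was not tested. The levels of the 11 with under 30% are uncertain for this reason, Cox7c, Atp5g2, Ndufb4, Atp5l, Uqcrb, Atp5md, Atp5g1, Atp5h and Cox7a2l among them. Cox7a1 and Ndufa4l2, the lowest of the tested genes, had 71.3% and 67.1% found once. In these genes 0% and 0.42% of stretches were found several times, and 28.7% and 32.5% were not found.

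Where a subunit has 2 or more gene copies, 1 of them took nearly all the reads or most of them. In every one of the 14 libraries the first gene of each of the 9 pairs was denser than the second. Cox7a2 stood at 249 ± 30.7 and the muscle isoform Cox7a1 at 1.79 ± 0.712 (SD, n = 14), a mean log2 ratio of 7.19 ± 0.58. Ndufa4 exceeded Ndufa4l2 by 8.88 ± 0.55 (log2, SD, n = 14). Each of the 5 pairs whose second gene had reads in every library gave an adjusted p of 1.22e-04 over the 9 pairs (exact two-sided permutation test by sign flips of the 14 log2 ratios, the smallest p it can give).

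The other muscle, lung and testis isoforms were almost without reads, and no test is given for these 4 pairs. Cox8b, of heart and skeletal muscle, had 7 CDS reads, all in CT8 mouse 1, against 104567 for Cox8a over the 14 libraries. Cox6a2, also of striated muscle, had 35 against 98176 for Cox6a1. Cox4i2, known from lung, had 10 CDS reads against 132847 for Cox4i1, and Cox6b2, known from testis, had 45 against 73729 for Cox6b1. With a pseudocount of 0.5 reads their mean log2 ratios were 13.56 for Cox8a over Cox8b, 12.27 for Cox6a1 over Cox6a2, 13.42 for Cox4i1 over Cox4i2 and 11.63 for Cox6b1 over Cox6b2. These ratios depend on the pseudocount, since in each case some libraries had no read of the second gene. Cox7b2 and Cox8c had 0 reads in all libraries, which allows a level of up to 0.00357 CPM (3 counts over all libraries, counting error only). Summed markers of skeletal and cardiac muscle reached at most 0.622 CPM, and the 4 testis germ cell markers were at 0.

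**Figure D2:**
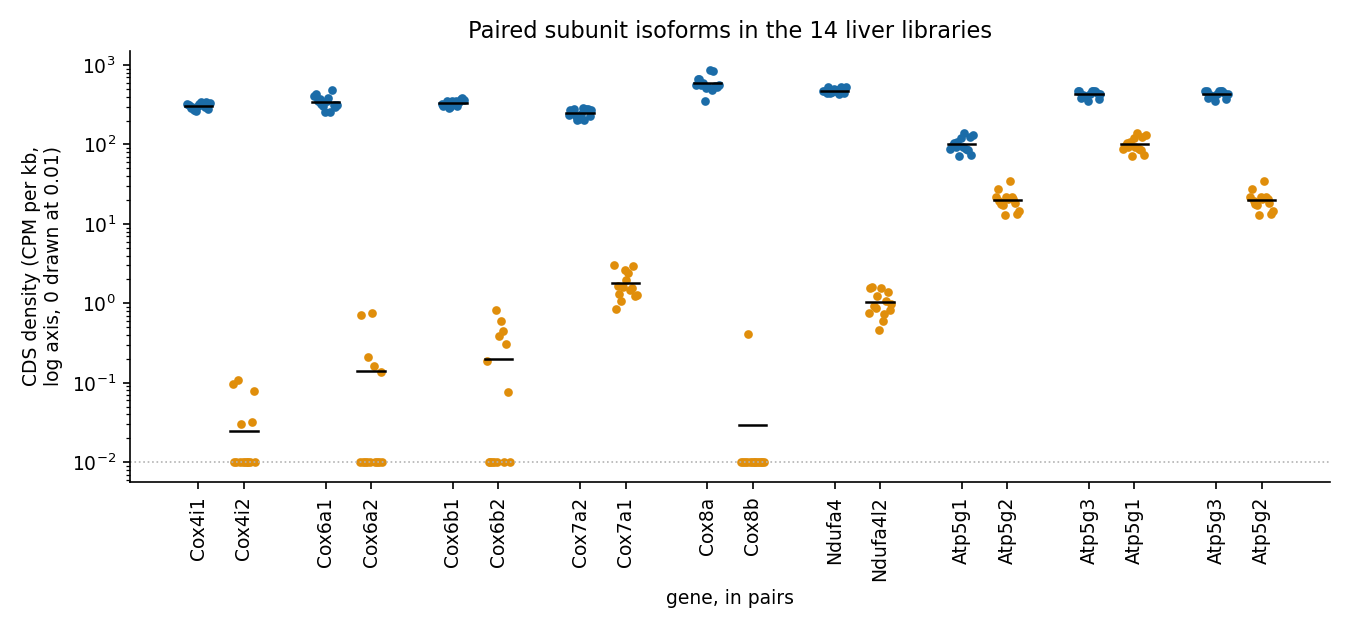
CDS density (CPM per kb, log axis) of the paired isoforms, first gene of each pair in blue and second in orange; each point is 1 of 14 libraries, bars are means, and values of 0 are drawn at 0.01. Cox8a lies between 352 and 857 while Cox8b has reads in 1 library, and Atp5g3, Atp5g1 and Atp5g2 keep the same order throughout.

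The c subunit of ATP synthase, which forms the rotating ring, is made from 3 genes that encode the same mature protein behind different targeting peptides. Atp5g3 was densest, at 428 ± 40.5, followed by Atp5g1, at 101 ± 21.4, and Atp5g2, at 20.1 ± 5.59 (SD, n = 14). The log2 ratio of Atp5g3 over Atp5g1 was 2.11 ± 0.32, and that of Atp5g1 over Atp5g2 was 2.34 ± 0.37. Together they were 1.76-fold as dense as Atp5b. The genes share 79 consecutive codons for the same residues, in which 64 of 237 bases differ between at least 1 pair of genes. The most divergent 30 bases of that run, in frame and on the minus strand of each gene (chr11:96073615-96073644, chr15:102665146-102665175 and chr2:73909276-73909305 on GRCm38), are shown because reads can be told apart only by such bases; capitals mark the positions where the genes differ.
Atp5g1: atTTCCCgGgacatCgaCacAgcAgccaaG
Atp5g2: atTTCAAgGgacatCgaCacAgcTgccaaG
Atp5g3: atCAGCAgAgacatTgaTacTgcTgccaaA
In this stretch Atp5g1 and Atp5g2 resemble each other more than either resembles Atp5g3. Stretches found once made up 81.2% of the Atp5g3 CDS, 17.4% of the Atp5g1 CDS and 0% of the Atp5g2 CDS, which follows the order of their densities.

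No subunit had a 24 h course that passed the test in edgeR. A 24 h cosine was fitted to each transcript's counts with edgeR's quasi-likelihood test, and p-values were adjusted by Benjamini-Hochberg over all 17299 transcripts tested. None of the 79 subunits passed an adjusted p of 0.05, whereas 11.3% of all transcripts did. At an unadjusted p of 0.05 the count was 7 of 79, or 8.86%, against 24.4% of all transcripts. DESeq2 called 4 of 79 after adjustment (15.6% of all transcripts).

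The JTK_CYCLE-type test, which ranks values against cosine orders and corrects each P only for the phases tried, called 12 of 79 after TMM scaling, or 15.2%, against 16.7% of all transcripts. On plain total-count scaling it called 26 of 79, or 32.9%, against 17.6%. Adjusted over transcripts, it called 0 of 79 under either scaling, against 3.43% of all transcripts with TMM and 1.47% with total counts.

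On TMM-scaled levels the fitted courses of the subunits were shallower at the median than those of all transcripts, and on total counts they were not. The median peak-to-trough difference was 0.27 (log2) over the 79 subunits, 0.44 over all transcripts tested and 0.37 over those that averaged 100 counts or more. With total-count scaling it was 0.68 over the subunits and 0.64 over all transcripts. By complex, after TMM scaling, it was 0.27 for complex I, 0.20 for complex II, 0.29 for complex III, 0.24 for complex IV and 0.27 for complex V. For the 70 subunits with a mean of at least 1000 counts, the upper 95% limit of the peak-to-trough difference lay between 0.25 and 0.96, with a median of 0.51 (least-squares cosine on TMM-scaled log2 CPM, the source of each difference given below with an interval). A doubling between trough and peak was therefore outside the interval of each of these 70. The largest fitted difference, that of Ndufa4l2, was 1.29 in edgeR and 1.35 by least squares, with an upper limit of 2.58, and rested on 10 to 80 counts per library. Of its 520 counts over all libraries, 287 lay in the 3′UTR and 233 in the CDS.

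**Figure D3:**
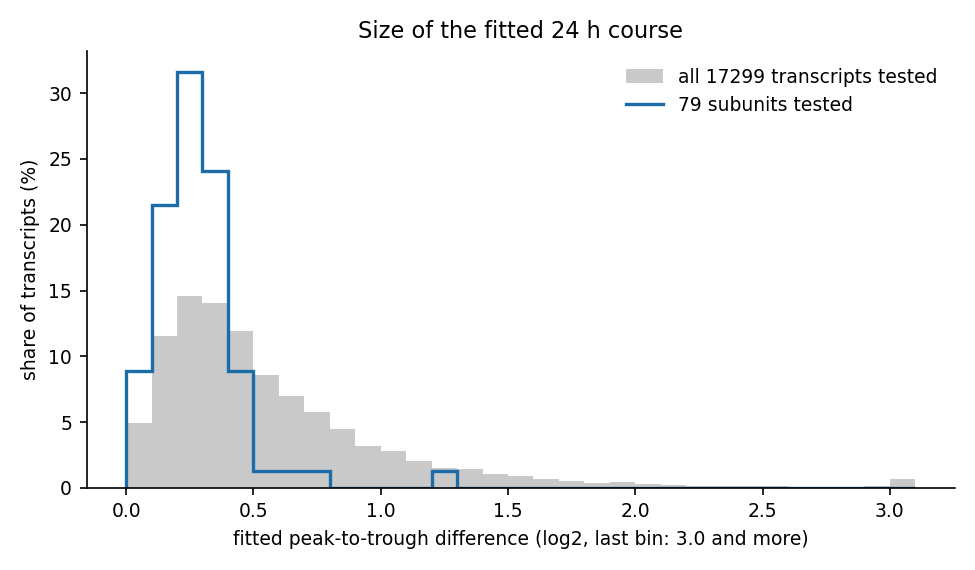
Fitted peak-to-trough difference of the 24 h cosine (log2) against the share of transcripts (%), for the 79 subunits tested (blue line) and all 17299 transcripts tested (grey). After TMM scaling the subunits have a median of 0.27 and all transcripts one of 0.44.

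The complexes shared the time of their lowest mean, CT8, and differed in the time of their highest, which was CT0, CT16 or CT20. The highest summed level of all subunits was at CT20, with 6070 and 5826 CPM in the 2 mice, and the lowest at CT8, with 5344 and 4760 CPM, a ratio of means of 1.18. Complex I was highest at CT0, with 1610 and 1622 CPM, against 1398 and 1307 CPM at CT8, without overlap between those times. Complex V was highest at CT16, with 2122 and 2126 CPM, against 1880 and 1663 CPM at CT8, and complex II likewise, with 514 and 513 CPM against 465 and 410 CPM. Complex III ran from 841 and 889 CPM at CT0 to 758 and 646 CPM at CT8. Complex IV, highest at CT20 with 1022 and 915 CPM and lowest at CT8 with 844 and 735 CPM, had mice as far apart as 1026 and 773 CPM at CT16. These sums were not tested, and the highest times turned on single libraries. The sum over all subunits was highest at CT0 without CT0 mouse 1 or CT20 mouse 1 and at CT16 without CT16 mouse 2, which also moved complexes III and IV to CT16. Without CT20 mouse 1 complex IV was highest at CT0, with a ratio of 1.18. Without CT20 mouse 2 complex I was highest at CT20, at 1616 CPM, and the ratio of highest to lowest mean of complex IV was 1.29 in place of 1.23. Under total-count, DESeq2 and upper-quartile scaling the sum over all subunits was also lowest at CT8, while its highest time was CT0 in the first and the last, and the ratio of highest to lowest mean ran from 1.16 to 1.87.

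The low at CT8 rested in part on single animals. CT8 mouse 2 had the lowest sum of all libraries in each complex, and without it the lowest mean moved to CT12 for the sum of all subunits and for complexes III, IV and V and to CT4 for complex II, while complex I kept CT8. Without CT24 mouse 2 the low of complex III moved to CT24, and without CT16 mouse 1 that of complex IV moved to CT16. Of the 79 subunits, 42 had their lowest time mean at CT8, against 11.6% of all transcripts, and with total-count scaling 44 against 24.5%. Without CT8 mouse 2 these became 27 of 79 and 18.4%. The count was 29 of 79 without CT12 mouse 2 (9.97% of all transcripts) or CT16 mouse 1 (10.2%), 33 without CT24 mouse 2 (11.3%) and 50 without CT8 mouse 1 (15.7%). In 5 of 79 subunits both CT8 mice were below every other library, against 1.21% of all transcripts. CT8 was taken because the sum of these same subunits, which share libraries and scaling factors, was lowest there. The counts at CT8 therefore partly restate that choice and are no separate support for a low. A fitted peak between CT12 and CT24 was found for 72 of 79 subunits, against 48.5% of all transcripts. This window was chosen after the values were seen, the subunits share the same 14 libraries and scaling factors, and none of the fits passed the threshold. With total-count scaling the count was 78 against 70.9%, and with upper-quartile scaling 65 against 43.3%.

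**Figure D4:**
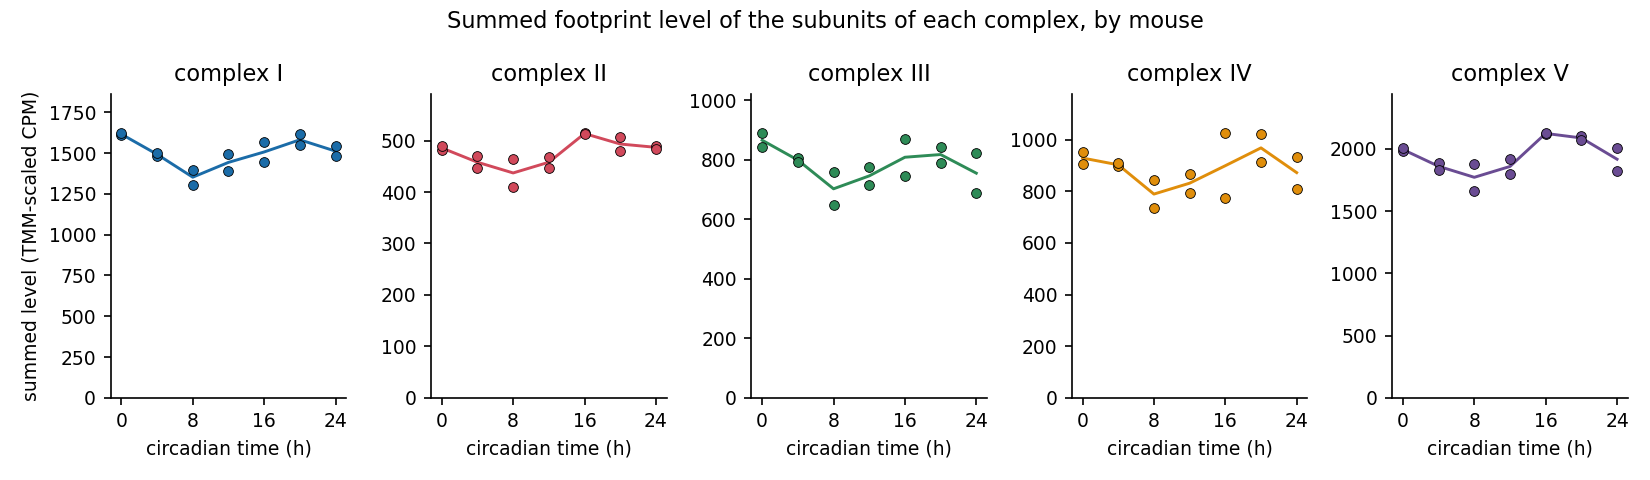
Summed level of the subunits of each complex (TMM-scaled CPM, axes from 0) against circadian time (h); points are mice, 2 at each time, and lines join their means. Every complex has its lowest mean at CT8, 1.18 to 1.23 times below its highest.

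In ATP synthase, the complex with the most reads, none of the 17 subunits passed edgeR's test of a 24 h course. Atp5b had its lowest value, 421 CPM, in CT8 mouse 2, a median of 496 CPM and its highest value, 587 CPM, in CT16 mouse 2. Its peak-to-trough difference was 0.27 (95% interval 0.13 to 0.41), with adjusted p = 0.212 in edgeR. Atp5a1 ran from 392 to 547 CPM with a median of 446, also lowest and highest in those libraries, with a difference of 0.30 (0.15 to 0.45) and adjusted p = 0.159. Atp5c1 went from 80.3 and 73.2 CPM at CT8 to 103 and 106 CPM at CT20, with a difference of 0.39 (0.18 to 0.60) and adjusted p = 0.103. DESeq2 called Atp5c1, and edgeR did not.

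The 3 accessory subunits of complex I that came nearest to the threshold in edgeR are named because DESeq2 also called them, a choice made after their values were seen. Ndufa13, also known as GRIM-19, had 62.3 and 61.3 CPM at CT0 and 47.2 and 38.9 CPM at CT8. Its fitted peak was at 23.4 h, its peak-to-trough difference 0.44 (95% interval 0.21 to 0.66) and its adjusted p 0.0605. Ndufb8, a membrane arm subunit, went from 50.4 and 54.7 CPM at CT0 to 38.3 and 33.3 CPM at CT8, with adjusted p = 0.0772. Ndufa2, a small matrix-side subunit, went from 51.5 and 43.2 CPM to 33.0 and 28.4 CPM, with adjusted p = 0.0681. In all 3 the CT0 mice were above both CT8 mice on TMM-scaled levels, as in 46 of 79 subunits and 23.5% of all transcripts, and nothing is read from it, since the choice of these genes favoured such a gap. Without CT20 mouse 2, the library with pancreas markers, edgeR called Ndufa2 alone (10.7% of all transcripts), and without CT12 mouse 2 it called Ndufa13 alone (8.66%).

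In the redox core of complexes I to IV no subunit passed the test either. Ndufs1 ranged from 49.8 to 76.3 CPM, and its fitted peak, at 14.9 h, was earlier than that of most complex I subunits, with adjusted p = 0.206. Ndufv1 ranged from 58.0 to 78.2 CPM, with adjusted p = 0.472. In both, mice of some neighbouring times overlapped, while Ndufs1 was lower in both CT0 mice than in any other library.

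For complex II, Sdha ranged from 198 CPM in CT4 mouse 2 to 270 CPM in CT16 mouse 2 and Sdhb from 89.2 to 117 CPM. Their peak-to-trough differences were 0.24 (95% interval 0.08 to 0.40) and 0.26 (0.09 to 0.42). In complex III, Cyc1 had 95.1 and 111 CPM at CT0, 85.8 and 64.0 CPM at CT8 and 101 and 101 CPM at CT16, with a difference of 0.42 (0.12 to 0.73) and adjusted p = 0.139. Uqcrfs1 ranged from 76.5 to 133 CPM with a difference of 0.41 (0.05 to 0.77). Uqcrc1 ranged from 129 to 184 CPM, with an interval of 0 to 0.40. Lower limits of these intervals are cut at 0, so whether one reaches 0 is no test of a course. In edgeR the adjusted p was 0.320 for Sdha, 0.305 for Sdhb, 0.214 for Uqcrfs1 and 0.525 for Uqcrc1.

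In complex IV, Cox4i1 ranged from 137 to 179 CPM and Cox5a from 59.5 to 115 CPM, with upper limits of 0.40 and 0.67 on the peak-to-trough difference. Cox8a had 133 and 78.4 CPM at CT8, 189 and 106 CPM at CT16, and 186 and 120 CPM at CT20. It had 124 and 146 CPM at CT0, 145 and 124 CPM at CT4, 112 and 116 CPM at CT12, and 117 and 127 CPM at CT24. The mice were thus far apart at CT8, CT16 and CT20 and closer at the other times. Ndufa4, the densest subunit counted in complex I, had a narrow range, from 119 to 150 CPM, with an upper limit of 0.25.

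**Figure D5:**
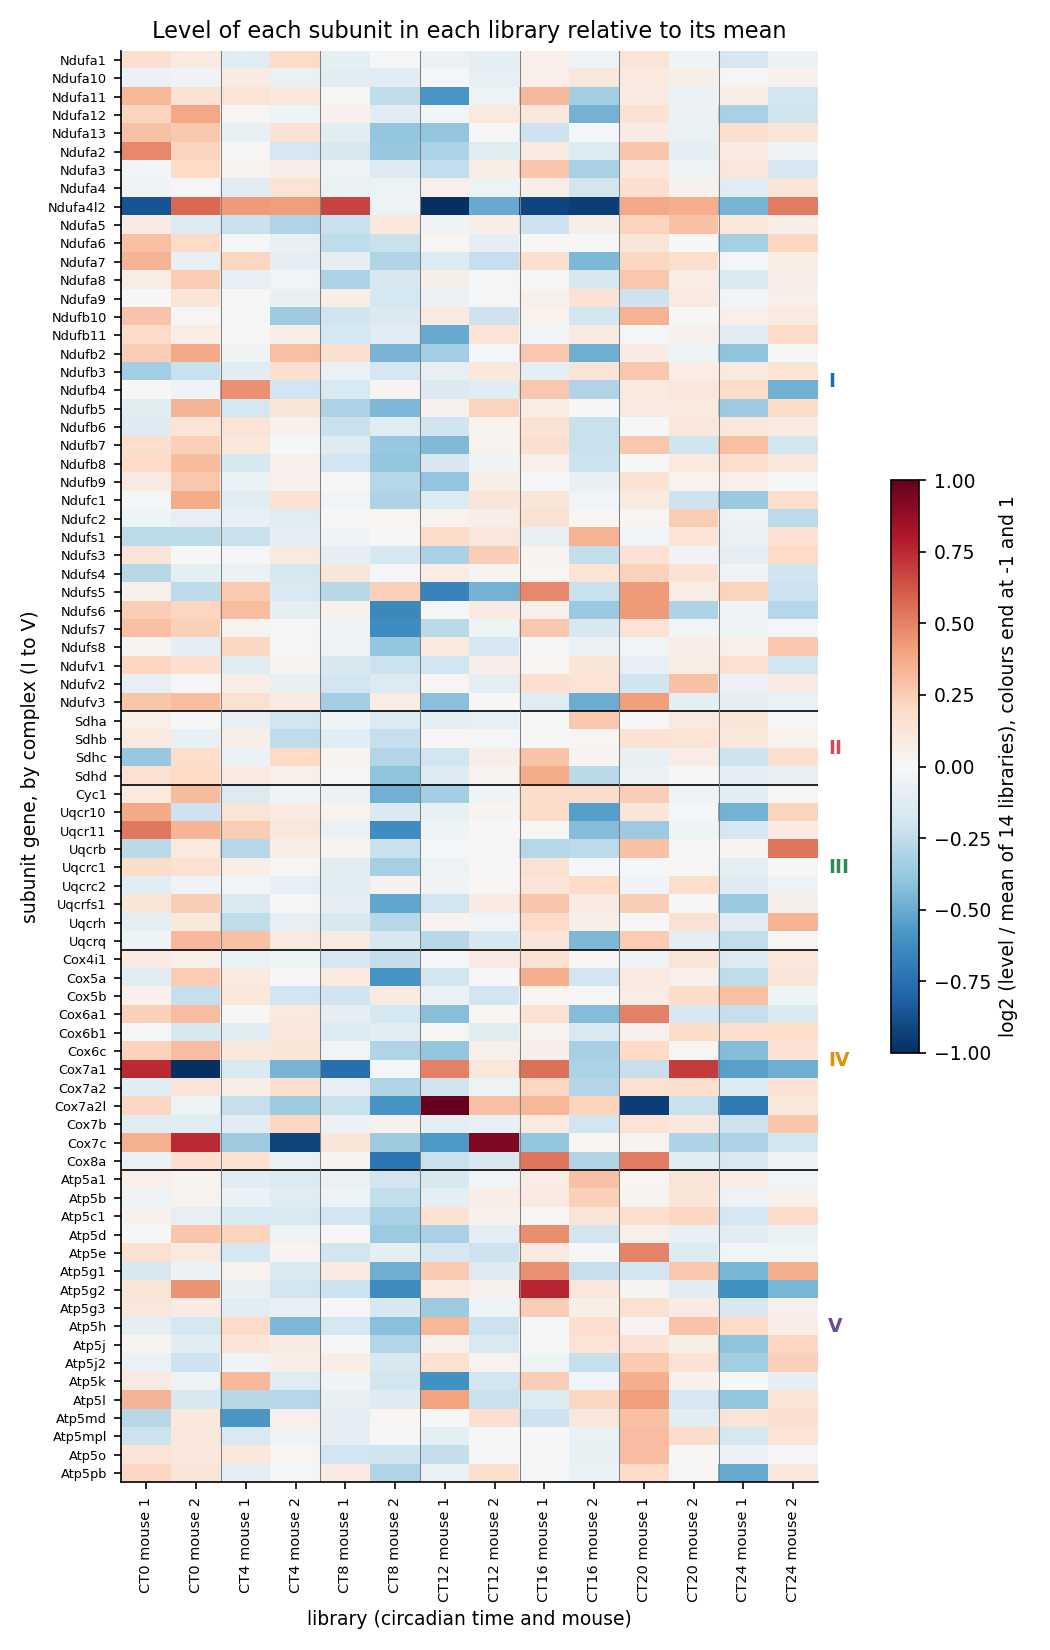
Level of 78 of the tested subunits (rows, grouped by complex I to V) in each of the 14 libraries (columns), as log2 of CPM over the gene's mean; blue is below and red above the mean, and colours end at -1 and 1. Most cells are pale, the column of CT8 mouse 2 is blue in many rows, and the strongest colours belong to genes with few reads, such as Ndufa4l2 with 10 to 80 counts per library.

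A test for any difference between the 7 times, with time as a factor in edgeR, called 1 of 79 subunits, or 1.27%, against 7.08% of all transcripts. At an unadjusted p of 0.05 it called 4 of 79, against 18.1% of all transcripts. The 1 subunit was Atp5g2, with adjusted p = 0.0430. It had 9.77 and 12.2 CPM at CT0, 7.72 and 5.80 at CT8, 15.2 and 9.72 at CT16, and 5.89 and 6.51 at CT24. None of its CDS stretches is unique in the genome. The call held when CT8 mouse 1, CT16 mouse 2, CT20 mouse 1 or CT20 mouse 2 was left out and was lost when any other single library was, with adjusted p-values from 0.0143 to 0.122. Cox7a2l was called as well without CT20 mouse 2, and alone without CT12 mouse 2 or CT24 mouse 2, while Cox7c alone was called without CT12 mouse 1. DESeq2 called Atp5g2, Cox7a2l and Uqcr11, 3 of 79, against 14.2% of all transcripts.

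CT24 repeats the phase of CT0 a day later, and no subunit differed between them after adjustment in edgeR, as for all transcripts, of which 0% passed. At an unadjusted p of 0.05 the counts were 5 of 79 and 5.05% of all transcripts, and DESeq2 also called 0 of the 79. The differences (CT24 minus CT0, log2) ran from -0.83 for Atp5g2 to 0.40 for Ndufb3, an accessory subunit of the membrane arm, with a median of -0.11 against 0.01 over all transcripts. They were below 0 in 53 of 79 subunits and in 49.1% of all transcripts, and with total-count scaling, which moved the median of all transcripts to -0.30, in 77 of 79 and 82.3%. For Atp5b the difference was 0.00 ± 0.15 (SE, 2 mice at each time) and for Atp5a1 -0.02 ± 0.14.

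Relative to the CDS, footprint density per nt upstream of the start codon was lower in the subunits than in all transcripts at the median. The upstream share of reads was lower by a margin that depended on whether Mup was counted. Reads in the 5′UTR made up 3.75% to 6.34% of 5′UTR and CDS reads of the subunits per library, with a median of 5.47%, against a median of 7.39% over all transcripts and of 5.80% over all transcripts without Mup. Over the 14 libraries, Ndufv2 gave 18311 of the subunits' 5′UTR reads and Atp5c1 16718. Their other transcripts had means of 0.429 and 15.2 reads per library in the 5′UTR, in place of 1308 and 1194. The share of the subunits without these genes was not computed. In the 48 subunits with a mean of at least 10 reads in each region, density per nt in the 5′UTR was 0.196 of that in the CDS at the median, against 0.637 over 7640 transcripts; the median 5′UTR was 100.5 nt in the former and 231 nt in the latter. The highest ratios were 1.19 for Atp5md, a small membrane subunit of ATP synthase, 0.898 for Ndufv2 and 0.824 for Uqcrh, the hinge protein of complex III. Those of Atp5md come from a gene with 11.3% of CDS stretches found once. Those of Ndufv2 lie in a 5′UTR of 483 nt that is mostly CDS in its other transcript, where a mean of 0.429 reads per library fell in the 5′UTR in place of 1308.

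No 24 h course of reads upstream of the start codon relative to the CDS passed the test. With limma on the log2 ratios, 0 of 48 subunits passed after adjustment, as did 0% of all transcripts. At an unadjusted p of 0.05 there were 1 of 48, Atp5h, the d subunit of the stalk, and 4.93% of all transcripts. Atp5h had 262 reads in its 5′UTR over the 14 libraries, and its adjusted p was 0.809. Neither DESeq2 nor the JTK_CYCLE-type test was run on these ratios.

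Neighbouring pathways were read from lists, in the same edgeR fit of the 24 h cosine. Of 48 assembly factors, which build the complexes without remaining in them, 0 passed, against 11.3% of all transcripts, and Uqcc2, needed for complex III, came nearest, with adjusted p = 0.0545. Of 20 tested genes for electron carriers and coenzyme Q, 2 passed, or 10.0%, against the same 11.3%. Coq10b, a coenzyme Q binding protein, rose from 3.05 CPM at CT0 to 17.7 CPM at CT12 (means of 2 mice, adjusted p = 3.45e-07). Coq8a, needed for coenzyme Q synthesis, ran the other way, from 216 CPM at CT0 to 47.1 CPM at CT12 (adjusted p = 1.14e-06).

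Of 18 citric acid cycle genes, which include pyruvate dehydrogenase, 5 passed, or 27.8%, against 11.3% of all transcripts. Fh1, Idh3a, Ogdh and Pdhb were among them, with fitted peaks from 14.7 to 16.4 h. Pdhb, a subunit of pyruvate dehydrogenase, had 41.5 CPM at CT4 and 65.5 CPM at CT16 (adjusted p = 0.00697). Of 17 tested regulators of mitochondrial biogenesis, 4 passed: Ppara, Ppargc1a, Ppargc1b and Lrpprc. Ppara, a nuclear receptor for fatty acids, had 32.6 CPM at CT0 and 70.5 CPM at CT8, with a fitted peak at 11.1 h (adjusted p = 0.00863). Whether any of these lists differed from the subunits was not tested.

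Promoters of the subunits were searched for motifs of factors known from respiratory genes. RefSeq promoter windows on GRCm38.p6, from 250 bases before to 50 after the gene start, were matched by symbol for 68 of the 85 genes. On either strand, the NRF1 core CGCATGCG was in 9 of 68, or 13.2%, against 2.07% of all 27025 genes with a window. The ETS motif CCGGAAG was in 17 of 68, against 9.93%, and the YY1 motif AAGATGGC in 10 of 68, or 14.7%, against 3.19%. Any of the 3 was in 30 of 68 genes and in 14.1% of all genes. The windows were not matched for base composition, and a match is a description of letters.

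One NRF1 core from each complex that has any is shown in a stretch of 30 bases that includes it, on the gene's strand and with the core in capitals. The cores begin 9, 5, 161 and 41 bases before the gene start, in that order, and that of Uqcr11 runs across it. The stretches are at chr2:36049329-36049358, chr10:80406808-80406837, chr5:115349101-115349130 and chr15:102671070-102671099 on GRCm38.p6.
Ndufa8: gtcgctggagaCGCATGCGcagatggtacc
Uqcr11: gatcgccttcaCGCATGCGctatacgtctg
Cox6a1: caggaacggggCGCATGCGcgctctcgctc
Atp5g2: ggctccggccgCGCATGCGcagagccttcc
Genes with this core differed in density, with Cox6a1 at 346 and Atp5g2 at 20.1 CPM per kb, though the latter level is uncertain, with 0% of its CDS stretches found once.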

How the data were processed

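Ribosome-protected fragments of 26 to 34 nt were sequenced from 14 livers. Per the labels, the authors aligned to mm10 with Bowtie2 2.1.0.0 and SAMtools 0.1.19.0, and deposited unnormalized counts of reads for each of 28167 RefSeq transcripts, split into coding and both untranslated regions, beside region lengths. The study's methods name uniquely placed reads for its density profiles; for these tables, how reads that fit several transcripts or places were counted is not given in the sources used here. A second run of CT16 replicate 2 was not analysed here. For the last pair the time tag reads CT00 and the title CT24, and the title was used.

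The 3 regions were summed, and 1 transcript per gene (highest mean) stood for the gene. edgeR 4.0.16 (TMM, quasi-likelihood; mean of at least 10 counts; threshold 0.05) tested a 24 h cosine, time as a factor and CT24 against CT0; limma 3.58.1 tested log2 5′UTR:CDS ratios (pseudocount 0.5). DESeq2 1.42.0 and a JTK_CYCLE-type test written anew, which keeps tied cosine ranks tied and so is not the study's software, were alternatives. In simulated data the cosine test recovered 74 of 100 transcripts with a peak-to-trough difference of 1 (log2) and 100 of 100 with 2; for a change of 1 (log2) the test of any difference between times recovered 40 of 100 and CT24 against CT0 37 of 100.

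Members and lists were chosen with earlier results of these data known. Named genes were the highest and lowest density per complex, a core set, isoform pairs, genes below the count minimum, the highest 5′UTR ratios and any called. Files' CDS lengths follow the annotation within 1 nt per exon, except for Cox4i1, Ndufa12 and Cox6a1, and the files' lengths were used. A few genes are not reported here by name, though they remain in the counts.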

Additional observations from a re-analysis of the deposited data

How the results depend on the processing

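With 2 mice at each time, single libraries carry weight, and repeated sequence and shared reads limit the levels of several small subunits. The number of subunits called for a 24 h course, 0 as reported, was 1 with total-count scaling (Ndufa13; 8.24% of all transcripts), 3 with a count minimum of 100 (Ndufa13, Ndufa2 and Ndufb8; 16.7% of all transcripts), 4 with DESeq2 (these and Atp5c1, with a peak-to-trough difference of 0.40; 15.6%), 26 with the JTK_CYCLE-type test on total counts (17.6%), 12 with it on TMM-scaled values (16.7%), and 0 to 1 when each library was left out (8.66% to 11.9%). The number called for any difference between times, 1 as reported, was 8 with total-count scaling (12.7% of all transcripts), 0 with CDS reads only (6.84%), 0 with 1 transcript per gene (6.40%), 3 with DESeq2 (14.2%) and 0 to 2 when each library was left out (4.95% to 8.22%). Counts for CT24 against CT0 and for the 5′UTR to CDS ratio were 0 under each alternative run, and all 9 isoform pairs kept their direction under each, in a test already at its smallest p, so that passing it again says nothing of stability. The alternatives with Benjamini-Hochberg adjustment of the JTK_CYCLE-type P, without subunits of under 30% unique stretches (61 of 68 with a fitted peak from CT12 to CT24) and with Ndufa4 in complex IV (its share then 18.2%) were chosen after seeing the data. In the last 2 every complex kept its lowest mean at CT8. Replicate numbers did not pair the mice across times: the deviations of same-numbered mice had a median correlation of 0.02 over 21 pairs of times, above 0.1 in 4. With a replicate block the calls among subunits were 0 for the 24 h course (11.1% of all transcripts), 1 for any difference between times (7.43%), 0 for CT24 against CT0 and 0 for the ratio.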
